A study of Mus musculus with 7 samples.

Results

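Chromatin accessibility in young and aged mouse liver was examined at 10 genes of fatty acid synthesis, namely Acly, Me1, Acaca, Fasn, Elovl6, Scd1, Gpam, Thrsp, Srebf1 and Mlxipl. The genes were chosen by name as enzymes and regulators of the pathway. Every region of the count table that overlapped the body of such a gene or the 10 kb on either side was taken, which gave 109 of 55680 regions, with 4 regions for Scd1 and up to 20 for Acaca. By the same rule, 28925 annotated genes have at least 1 region.

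The libraries came from ATAC-seq, in which a transposase cuts exposed DNA and leaves adapters for sequencing there, on liver nuclei of physiologically healthy male C57BL/6N mice fed a standard diet ad libitum. Samples of 3 young mice (3 months) were compared with 4 aged samples (18 months) to learn how accessibility differs with age. No allele or agent distinguished the ages. The series description counts 3 aged animals, with a pair of lobules of the same liver taken as separate samples, while the study's methods speak of 4 biological replicates; which aged samples share a liver is not stated, and if a pair does, p-values over the 4 samples are too small. The counts in regions summed to 10384725, 25461110 and 5709327 in young replicates 1 to 3, and to 11717992, 5108283, 4474652 and 8397956 in aged replicates 1 to 4. Accessibility is given as CPM, the counts scaled to library size with TMM factors, which compare libraries by the bulk of their regions. The median count of the 109 regions was 59 to 349 per sample and the lowest was 3.

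Fatty acids are built in the cytosol of hepatocytes from acetyl-CoA, which is released from citrate, carboxylated to malonyl-CoA and condensed on a large multifunctional synthase with NADPH as reductant. The product, palmitate, is elongated, desaturated and joined to glycerol for storage or export. Insulin, acting largely through the transcription factor SREBP-1c, and glucose, acting through ChREBP, raise transcription of these genes after feeding and let it fall in fasting.

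Aged replicate 2 stood apart from the other 6 samples at these genes, and this was noticed in the values themselves. It had the highest CPM of all samples in 61 of the 109 regions, whereas it was highest in 15.1% of all regions, and each of the other samples was highest in 4 to 13 of the 109. The summed CPM of the 109 regions was 2209, 2298 and 1997 in young replicates 1 to 3, and 2522, 3361, 2517 and 2286 in aged replicates 1 to 4. The young samples and aged replicates 1, 3 and 4 thus lay close to each other, with aged replicate 4 below young replicate 2, and aged replicate 2 lay above them. As a share of all counts, which needs no scaling, the regions held 0.335% in aged replicate 2 and 0.213% to 0.245% in the other samples. The medians and edgeR call counts of the 109 regions, and the values of some single regions, are therefore given with and without this sample.

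At an adjusted p under 0.05 (edgeR's quasi-likelihood test, Benjamini-Hochberg adjustment over all regions), 6 of the 109 regions were more accessible in aged liver and 0 were less accessible. In bulk tissue, fewer cells with an open site and less accessibility in each cell cannot be told apart. Over all regions, 5.74% passed the threshold, 2.44% with an increase and 3.30% with a decrease. For the decrease, where edgeR gave 0, an unadjusted p under 0.05 with a lower value was found in 4 of the 109 regions, and DESeq2 and limma voom each called 0. DESeq2 called 9 increases, where it called 4.96% of all regions increased. Every aged sample was above every young sample in 16 of the 109 regions (10.2% of all regions), and every aged sample was below in 5 (11.6% of all regions). The median log2 fold change of the 109 regions was 0.19, beside -0.035 over all regions. Without aged replicate 2 it was -0.0073, beside -0.045 over all regions. The number of positive values then went from 76 to 54. Without this sample 3 regions were increased (2.61% of all regions) and 1, upstream of Thrsp, was decreased (2.59% of all regions). The region beyond Scd1 alone was increased without young replicate 1, and 3 regions were increased without aged replicate 1 or 3 or young replicate 2 or 3. Increases over the whole table also became fewer in these fits, from 1360 to 55 without young replicate 1, and to 129, 176, 196 and 1056 without aged replicates 1 and 3 and young replicates 2 and 3.

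The median of promoters moved less without aged replicate 2 than that of other regions, although this sample was often highest in both. A promoter region overlapped the 200 bp on either side of an annotated transcription start site (TSS), and 17 of the 109 regions lay at a promoter of 1 of the 10 genes. Of these 17, 4 were increased, where 4.48% of all promoter regions were increased and 2.06% decreased. Their median log2 fold change was 0.29, and 0.27 without aged replicate 2, which was highest in 11 of the 17, against 9.06% of all promoter regions. Over all promoter regions the medians were 0.094 and 0.107, respectively. In 8 of the 17, every aged sample was above every young one, as in 20.4% of all promoter regions. Both shares depended on mean accessibility. Of the 17, 9 belonged to the most accessible decile of all regions, and of these 4 were increased and 7 had every aged sample higher, where 11.2% and 46.9% of all promoters in that decile did. Of the 8 in lower deciles, 0 were increased and 1 had every aged sample higher, where 1.67% and 9.47% of all promoters in deciles 1 to 9 did. These counts are small and the genes were chosen with earlier results known. With offsets that level fold changes along mean accessibility, the median of the 17 promoters was 0.078, beside -0.027 over all promoter regions. In the 86 regions outside promoters, the median was 0.14 with all samples and -0.053 without aged replicate 2, which was highest in 47 of them, against 17.4% of all regions outside promoters. Over all regions outside promoters the medians were -0.091 and -0.111, respectively. With offsets on mean abundance the median of the 86 regions was 0.18, beside 0.037 over all regions outside promoters.

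**Figure D1:**
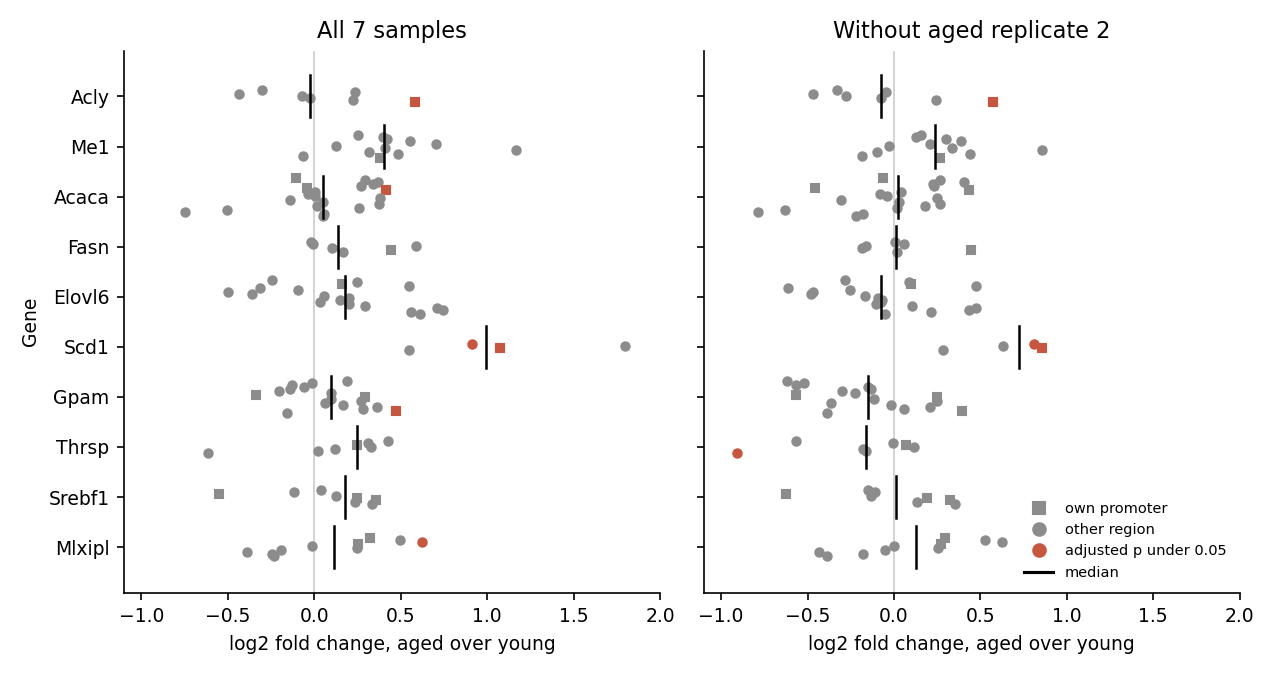
Log2 fold change of each of the 109 regions (horizontal axis, aged over young) by gene, with all 7 samples on the left and without aged replicate 2 on the right. Squares are promoters of the gene itself, circles are other regions, red marks an adjusted p under 0.05 and vertical lines are medians; the median of all 109 regions was 0.19 on the left and -0.0073 on the right.

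Acly encodes ATP citrate lyase, which releases the cytosolic acetyl-CoA from which fatty acids are made. Its promoter region, chr11:100527081-100529085 (GRCm38), had 99.4, 102 and 84.4 CPM in the young samples and 139, 146, 144 and 143 CPM in the aged samples. The aged samples lay close together and all above the young ones, of which young replicate 3 was lowest. Accessibility of the Acly promoter rose by a log2 fold change of 0.58 (SE 0.108, edgeR adjusted p = 0.013, higher in 4 of 4 aged samples than in any young sample). Without aged replicate 2 it was 0.57 (adjusted p = 0.024). Leaving out young replicate 1 ended the call at a value of 0.62 (adjusted p = 0.058), as did offsets on mean abundance at 0.24 (adjusted p = 0.23). The other 6 regions at Acly had log2 fold changes of -0.44 to 0.23 and none passed the test. In 2 of the 6, every aged sample was below every young one, as in 11.6% of all regions. The most accessible of the 6, an exonic region at chr11:100518169-100519392, had 22.5 to 31.5 CPM in young and 30.2 to 34.7 CPM in aged samples, so the ages overlapped (0.22, adjusted p = 0.34).

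Me1 encodes the cytosolic malic enzyme, which supplies NADPH. Its promoter region at chr9:86694961-86696268, which also covers a TSS of A330041J22Rik, had 12.2, 25.7 and 29.4 CPM in young and 29.0, 36.1, 31.3 and 20.6 CPM in aged samples. The ages overlapped, young replicate 1 being lowest and aged replicate 2 highest, and the difference did not pass the test (log2 fold change 0.38, SE 0.25, edgeR adjusted p = 0.37). Of 12 regions at Me1, 11 had positive log2 fold changes and 0 passed the test by edgeR, DESeq2 calling 0 and an unadjusted p under 0.05 being reached by 1. The most accessible region outside promoters, an intronic one at chr9:86596677-86597810, ranged from 4.60 to 14.9 CPM in young and from 2.80 to 18.7 CPM in aged samples, with aged replicate 4 lowest.

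Acaca encodes acetyl-CoA carboxylase 1, which makes malonyl-CoA, the committed step of the pathway, and its transcripts start at several promoters. The 5′-most promoter region, chosen after its values were seen, lies at chr11:84128982-84130106 and is shared with Tada2a. There the young samples had 23.9, 21.2 and 22.5 CPM and the aged samples 21.8, 19.0, 19.4 and 23.2 CPM. The ages overlapped, with a log2 fold change of -0.10 (edgeR adjusted p = 0.69). The most accessible promoter region of Acaca is an internal one, at chr11:84178904-84180631, with 106, 104 and 83.2 CPM in young and 127, 125, 133 and 138 CPM in aged samples. Every aged sample was above every young one, and accessibility rose by a log2 fold change of 0.42 (SE 0.115, edgeR adjusted p = 0.049). This call lay next to the threshold. With offsets on mean abundance the log2 fold change was 0.078 (adjusted p = 0.72), and the call also ended when any of the 7 samples was left out, with values of 0.33 to 0.48. The adjusted p was 0.11, 0.054, 0.12 and 0.061 without aged replicates 1, 2, 3 and 4, and 0.095, 0.11 and 0.092 without young replicates 1, 2 and 3, respectively. Of the 20 regions at Acaca, 5 had every aged sample above every young one and 1 had every aged sample below. The most accessible outside promoters, in an intron at chr11:84145293-84147329, was among those 5, with 26.2 to 27.1 CPM in young and 29.4 to 35.0 CPM in aged samples (0.29, adjusted p = 0.16).

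Fasn encodes fatty acid synthase, which assembles palmitate from acetyl-CoA and malonyl-CoA. Its promoter region, chr11:120823321-120824948, had 106, 102 and 67.3 CPM in young samples and 119, 125, 125 and 133 CPM in aged samples. All aged samples lay above the young ones, among which young replicate 3 was far lower than the others. The log2 fold change of 0.44 (SE 0.143) did not pass the test with edgeR (adjusted p = 0.077, higher in 4 of 4 aged samples than in any young sample), while DESeq2 gave an adjusted p of 0.039 and offsets on mean abundance a log2 fold change of 0.12 (adjusted p = 0.65). The region was near the threshold and this comparison was chosen after the values were seen. At the other end of the gene, the region over the 3′ UTR at chr11:120802956-120806726 was the most accessible outside promoters, with 61.1, 41.0 and 38.6 CPM in young and 50.7, 160, 47.9 and 27.9 CPM in aged samples. Aged replicate 2 alone was high there, and the other aged samples overlapped the young ones. The log2 fold change was 0.59 with all samples (edgeR adjusted p = 0.41) and -0.16 without aged replicate 2 (adjusted p = 0.70).

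Elovl6 encodes the elongase that lengthens palmitate, and Scd1 encodes the stearoyl-CoA desaturase that introduces a double bond. At the Elovl6 promoter region, chr3:129531826-129534461, shared with Gm35986, the young samples had 52.5, 55.9 and 54.1 CPM and the aged samples 64.9, 68.4, 58.1 and 50.5 CPM. Aged replicate 4 was below all young samples and the other aged samples above them (0.16, standard error 0.12, edgeR adjusted p = 0.45). Without aged replicate 2, which was highest, the promoter had 0.096 (edgeR adjusted p = 0.67). Offsets on mean abundance turned the direction there, to -0.076 (adjusted p = 0.82). An intronic region 3′ of this promoter, chr3:129535791-129536704, was named after its values were seen because it lay near the threshold. It had 14.7, 14.2 and 15.9 CPM in young and 23.6, 25.1, 19.8 and 18.2 CPM in aged samples, with no overlap. Its log2 fold change of 0.55 had an adjusted p of 0.058 with edgeR and 0.025 with DESeq2, and 0.029 with edgeR when aged replicate 4 was left out. Without aged replicate 2 the log2 fold change was 0.47 (adjusted p = 0.11), and leaving out any other sample gave an adjusted p of 0.070 to 0.17. Of the 18 regions at Elovl6, 0 passed the test with edgeR, 2 had an unadjusted p under 0.05 and DESeq2 called 1. The most accessible intronic region, chr3:129591308-129593471, ranged from 34.4 to 41.0 CPM in young and from 28.1 to 62.4 CPM in aged samples, with aged replicate 2 highest and aged replicate 4 lowest.

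Scd1 had the largest differences among the 10 genes by median log2 fold change, 1.00 over its 4 regions and 0.72 without aged replicate 2. The promoter region, chr19:44405399-44408761, had 38.0, 45.4 and 26.5 CPM in young and 72.0, 113, 62.6 and 66.9 CPM in aged samples. Every aged sample was above every young one, and aged replicate 2 was above the other aged samples. The mean was 36.6 ± 9.53 CPM (SD) in the 3 young and 78.6 ± 23.1 CPM in the 4 aged samples, and accessibility rose by a log2 fold change of 1.08 (SE 0.206, edgeR adjusted p = 0.014). Without aged replicate 2 the log2 fold change was 0.86 (adjusted p = 0.023). Leaving out young replicate 1 ended the call at a value of 1.10 (adjusted p = 0.060), as did offsets on mean abundance at 0.86 (adjusted p = 0.071).

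A region between genes at chr19:44387465-44389917, 4.54 kb beyond the 3′ end of Scd1, had 44.2, 51.1 and 38.1 CPM in young and 80.8, 103, 78.0 and 77.0 CPM in aged samples. The ages did not overlap, aged replicate 2 again being highest. It rose by a log2 fold change of 0.91 (SE 0.137, edgeR adjusted p = 0.0071, higher in 4 of 4 aged samples than in any young sample), and by 0.81 without aged replicate 2 (adjusted p = 0.016). Of the 6 increased regions this alone passed the test in all 20 alternative fits, with adjusted p-values from 1.1e-06 to 0.041. The region over the Scd1 3′ UTR, chr19:44393707-44396480, was chosen after its values were seen. It had 14.7, 16.1 and 9.37 CPM in young and 31.1, 132, 14.2 and 16.8 CPM in aged samples. Here aged replicate 2 was far above every other sample and aged replicate 3 lay among the young ones. The log2 fold change was 1.79 (edgeR adjusted p = 0.082) with all samples, 0.63 (adjusted p = 0.18) without aged replicate 2 and 2.09 (adjusted p = 0.027) without aged replicate 4.

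Gpam encodes the mitochondrial glycerol-3-phosphate acyltransferase, which attaches the acyl chain that begins glycerolipid synthesis. Its most accessible promoter region, chr19:55124826-55127944, had 45.1, 48.9 and 50.0 CPM in young and 56.0, 77.9, 72.4 and 61.9 CPM in aged samples. All aged samples lay above the young ones, most widely in aged replicates 2 and 3. Accessibility rose by a log2 fold change of 0.47 (SE 0.128, edgeR adjusted p = 0.044), but leaving out any sample other than aged replicate 4 ended the call, with log2 fold changes of 0.39 to 0.56. In these fits the adjusted p was 0.057, 0.077 and 0.12 without aged replicates 1, 2 and 3, and 0.15, 0.12 and 0.058 without young replicates 1, 2 and 3. Offsets on mean abundance gave a log2 fold change of 0.24 (adjusted p = 0.42). A downstream region at chr19:55063071-55064787, 2.48 kb beyond the 3′ end, was chosen after its values were seen. It had 20.2, 16.7 and 17.6 CPM in young and 14.4, 49.2, 11.9 and 8.91 CPM in aged samples. The value of aged replicate 2 was above all young samples and the other aged samples were below them, so the log2 fold change was 0.19 with all samples and -0.62 without aged replicate 2 (edgeR adjusted p = 0.82 and 0.085). Over the 17 regions at Gpam the median was 0.10 with all samples and -0.15 without this sample. The most accessible region outside promoters, in an intron at chr19:55121659-55122994, ranged from 19.4 to 23.4 CPM in young and from 18.4 to 37.9 CPM in aged samples.

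Thrsp encodes Spot 14, a small nuclear and cytosolic protein induced by thyroid hormone and carbohydrate that promotes lipid synthesis. The promoter region, chr7:97416605-97418001, had 38.9, 59.2 and 29.1 CPM in young and 53.4, 70.2, 48.6 and 33.9 CPM in aged samples. The spread within each age was wider than the difference between ages (0.25, standard error 0.233, edgeR adjusted p = 0.54; 0.056 with offsets on mean abundance). Downstream, at chr7:97410918-97412830, 0.108 kb beyond the gene, a region chosen after its values were seen had 14.6, 36.2 and 10.7 CPM in young and 17.9, 74.5, 20.1 and 5.73 CPM in aged samples. Aged replicate 2 was highest and young replicate 2 next, and the log2 fold change of 0.42 became -0.57 without aged replicate 2 (edgeR adjusted p = 0.70 and 0.46). The most accessible region outside promoters, between genes at chr7:97418734-97419602, had 13.0 to 31.4 CPM in young and 17.3 to 38.8 CPM in aged samples. The 1 decreased region without aged replicate 2, also between genes at chr7:97424442-97425172, was named after its values were seen. It had 10.8, 10.4 and 8.55 CPM in young samples and 6.59, 10.6, 4.90 and 4.20 CPM in aged samples, and aged replicate 2 alone lay within the young range. Its log2 fold change was -0.62 with all samples (edgeR adjusted p = 0.18) and -0.91 without aged replicate 2 (adjusted p = 0.049).

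Srebf1 encodes SREBP-1, whose precursor is cleaved in the Golgi to release the transcription factor. Its most accessible promoter region, at chr11:60207485-60211566, had 114, 91.9 and 89.1 CPM in young and 110, 131, 99.9 and 126 CPM in aged samples. The ages overlapped, with aged replicate 2 highest, and the log2 fold change of 0.25 had an adjusted p of 0.26 with edgeR and became -0.078 with offsets on mean abundance (adjusted p = 0.81). The 5′-most promoter region, chr11:60220110-60223306, was chosen after its values were seen. It had 99.2, 82.8 and 84.0 CPM in young and 107, 121, 114 and 113 CPM in aged samples. These did not overlap, and the log2 fold change of 0.36 had an adjusted p of 0.068 with edgeR and 0.028 with DESeq2, and was 0.039 with offsets on mean abundance (adjusted p = 0.90). A further promoter region within the gene, chr11:60203852-60204388, likewise chosen afterwards, had 24.3, 20.3 and 14.3 CPM in young and 11.0, 15.7, 14.5 and 13.6 CPM in aged samples. Young replicate 3 lay among the aged samples, and the log2 fold change was -0.55 (edgeR adjusted p = 0.10) with all samples and -0.70 (adjusted p = 0.049) without young replicate 3. The most accessible region outside promoters, at chr11:60229784-60230435 over a 3′ UTR of Tom1l2, had 15.0 to 22.3 CPM in young and 21.4 to 30.2 CPM in aged samples.

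Mlxipl encodes ChREBP, the glucose-responsive transcription factor. Its most accessible promoter region, chr5:135106532-135109688, had 91.4, 95.8 and 85.2 CPM in young and 106, 105, 116 and 106 CPM in aged samples. The ages did not overlap, but the log2 fold change of 0.25 did not pass the test (SE 0.104, edgeR adjusted p = 0.15), and offsets on mean abundance turned it to -0.067 (adjusted p = 0.77). At the 5′-most promoter region, chr5:135089420-135090690, chosen after its values were seen, the young samples had 29.2, 36.2 and 26.8 CPM and the aged samples 41.6, 41.4, 40.6 and 31.9 CPM. Only aged replicate 4 lay within the young range there (0.32, edgeR adjusted p = 0.18). Between these promoters, an intronic region at chr5:135104172-135104561 had 12.2, 14.1 and 11.2 CPM in young and 18.6, 19.2, 21.0 and 19.1 CPM in aged samples. It rose by a log2 fold change of 0.62 (SE 0.155, edgeR adjusted p = 0.035, higher in 4 of 4 aged samples than in any young sample). Leaving out any sample other than aged replicate 4 ended this call, the adjusted p being 0.080, 0.051 and 0.099 without aged replicates 1, 2 and 3, and 0.12, 0.073 and 0.067 without young replicates 1, 2 and 3. It also ended with offsets on mean abundance, where the log2 fold change was 0.61 (adjusted p = 0.076). A neighbouring intronic region, chr5:135100563-135101448, had 26.2, 25.1 and 14.8 CPM in young and 32.1, 29.0, 32.5 and 32.5 CPM in aged samples, without overlap (0.49, edgeR adjusted p = 0.097). None of the 10 regions at Mlxipl was highest in aged replicate 2.

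**Figure D2:**
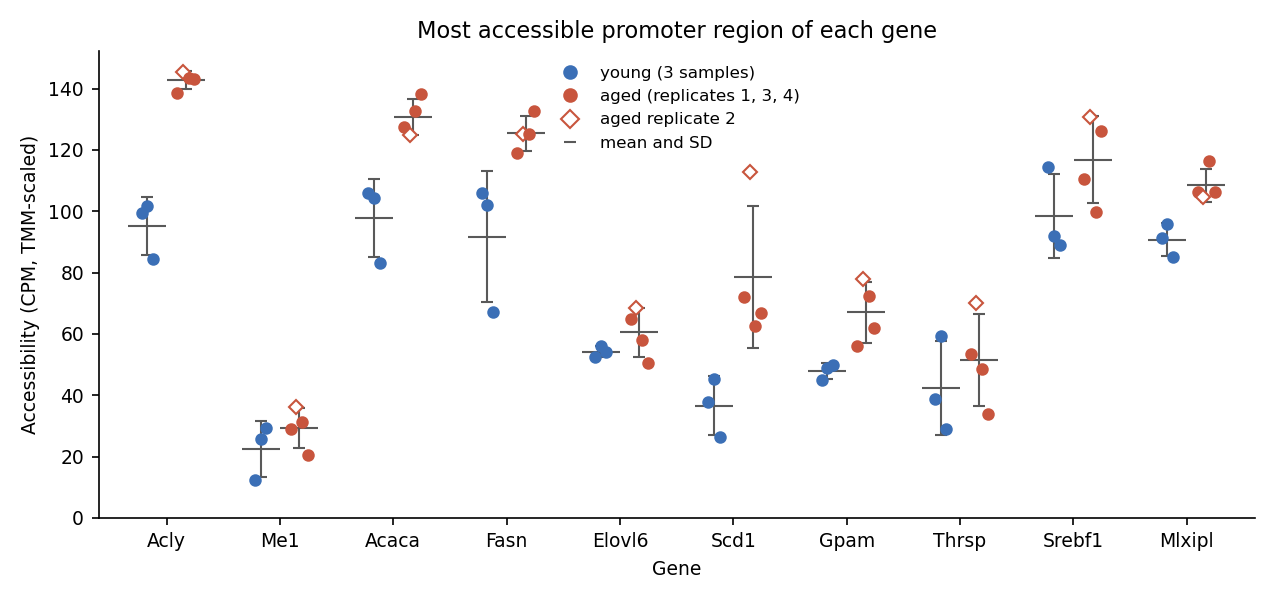
CPM (vertical axis) of the most accessible promoter region of each gene in 3 young (blue) and 4 aged (red) samples, with mean and SD; the open diamond is aged replicate 2. The aged samples of Acly sit between 139 and 146 CPM, above the young samples at 84.4 to 102 CPM, whereas the ages overlap for Me1, Elovl6, Thrsp and Srebf1.

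Per kb of region, the most accessible promoter regions of Fasn, Acaca and Acly had the highest values among the 10 genes at both ages. They had 56.4 ± 13.1, 56.6 ± 7.34 and 47.4 ± 4.68 CPM per kb in young samples (mean ± SD, n = 3) and 77.1 ± 3.50, 75.7 ± 3.40 and 71.2 ± 1.48 CPM per kb in aged samples (mean ± SD, n = 4). Thrsp (30.3 ± 11.0), Mlxipl (28.8 ± 1.69) and Srebf1 (24.1 ± 3.38) followed in CPM per kb of young samples, and in the same order in aged samples (36.9 ± 10.7, 34.4 ± 1.71 and 28.6 ± 3.47), Mlxipl and Srebf1 lying within the SD of Thrsp at both ages. In young samples Elovl6 (20.6 ± 0.655), Me1 (17.2 ± 6.92), Gpam (15.4 ± 0.827) and Scd1 (10.9 ± 2.83) had the lowest CPM per kb, Scd1 being last but not beyond the spread of Me1. In aged samples these 4 lay within each other's spread, with Scd1 at 23.4 ± 6.88, Elovl6 at 23.0 ± 3.00, Me1 at 22.4 ± 4.94 and Gpam at 21.5 ± 3.18 CPM per kb.

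The number of regions led by aged replicate 2 differed between the 10 genes. This sample was highest in 14 of 18 regions at Elovl6, 13 of 17 at Gpam, 6 of 7 at Thrsp, 4 of 4 at Scd1, 7 of 12 at Me1, 5 of 8 at Srebf1, 6 of 20 at Acaca, 3 of 7 at Acly, 3 of 6 at Fasn and 0 of 10 at Mlxipl. All 55680 regions were also ordered by the log2 ratio of the CPM in aged replicate 2 to the highest of the other 6 samples, with 0.5 added, an ordering chosen after the values were seen. The Scd1 3′ UTR region came 2nd in this order, the Fasn 3′ UTR region 6th and the downstream Gpam region 8th. An intronic Me1 region, chr9:86638909-86639250, came 20th with 6.67 CPM in aged replicate 2 and at most 2.81 CPM elsewhere. The downstream Thrsp region came 28th, and the Elovl6 3′ UTR region at chr3:129636986-129637668 came 56th, with 9.81 CPM against at most 5.10 CPM. Of the 100 regions highest in this order 6 belonged to the 10 genes, and of the highest 1000 it was 28. When each of the other samples was ordered in the same way, 0 of the highest 100 and 0 or 1 of the highest 1000 did. The region that came 1st, chr19:55051657-55052987, lies 14.3 kb beyond Gpam and so outside its window; it had 34.7 CPM in aged replicate 2 and 1.15 to 4.67 CPM in the other samples.

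**Figure D3:**
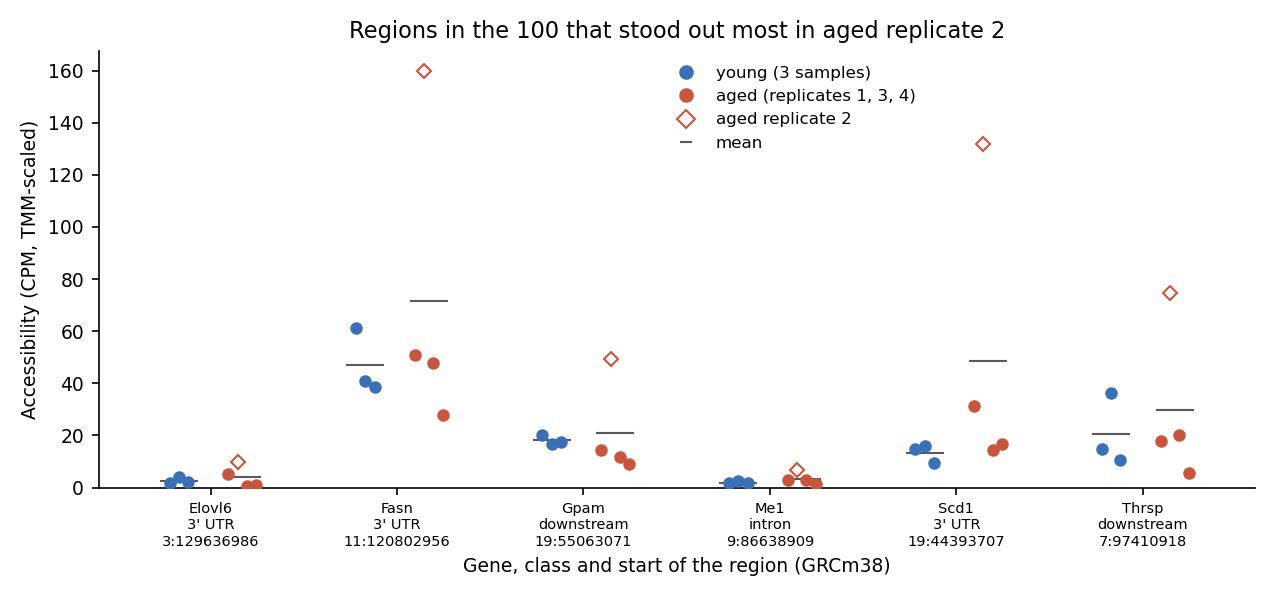
CPM (vertical axis) of the 6 regions of the 10 genes among the 100 regions that stood out most in aged replicate 2 (open diamonds), beside the other aged (red) and the young (blue) samples; grey lines are group means. At the Scd1 3′ UTR aged replicate 2 had 132 CPM and the other samples 9.37 to 31.1 CPM, and at the Fasn 3′ UTR 160 CPM against 27.9 to 61.1 CPM.

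Of the 10 genes, 9 have entries in the RefSeq promoter table (GRCm38.p6), 14 entries in all, of which 12 overlap a region; Scd1 has none. The 200 bases before each start were searched on both strands for GGGCGG (the GC box bound by Sp1 and related factors), CCAAT (bound by NF-Y), CACGTG (an E-box) and TCACNCCAC (a sterol regulatory element). GGGCGG was found in 6 of the 14 entries and 31.0% of all 32851 promoters, CCAAT in 6 and 29.3%, CACGTG in 1 and 5.26%, and TCACNCCAC in 1 and 0.858%. The sequences at the increased promoters of Acly and Gpam and at the Fasn promoter are given 5′ to 3′ on the gene's strand, with matches in capitals. Acly holds 4 matches to the GC box, Fasn 3 to CCAAT, of which 1 pair overlaps on opposite strands, and Gpam 1 to CCAAT.
Acly chr11:100528001-100528200, minus strand: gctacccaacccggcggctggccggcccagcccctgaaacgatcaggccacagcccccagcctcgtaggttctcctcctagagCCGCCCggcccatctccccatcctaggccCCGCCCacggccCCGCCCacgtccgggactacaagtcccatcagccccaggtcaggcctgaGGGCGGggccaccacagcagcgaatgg
Fasn chr11:120824548-120824747, minus strand: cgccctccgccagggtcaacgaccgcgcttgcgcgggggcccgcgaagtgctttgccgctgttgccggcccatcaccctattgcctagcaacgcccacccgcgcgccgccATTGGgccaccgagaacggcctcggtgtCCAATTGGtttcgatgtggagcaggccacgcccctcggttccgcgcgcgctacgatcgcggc
Gpam chr19:55127239-55127438, minus strand: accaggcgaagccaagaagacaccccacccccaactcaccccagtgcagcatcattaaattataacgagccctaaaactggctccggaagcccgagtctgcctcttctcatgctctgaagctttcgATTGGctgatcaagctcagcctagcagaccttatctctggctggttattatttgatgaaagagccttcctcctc

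The promoters of both transcription factors are shown because each gene has more than 1 accessible promoter. The Srebf1 sequence, from its most accessible promoter region, has 2 GC boxes and 1 CCAAT in capitals. The 5′-most Mlxipl sequence has 2 GC boxes, 1 CCAAT and the only E-box among the 14 entries. The sequence at the most accessible Mlxipl promoter has the only match to the sterol regulatory element. These matches describe letters in the sequence and were not tested for binding.
Srebf1 chr11:60210472-60210671, minus strand: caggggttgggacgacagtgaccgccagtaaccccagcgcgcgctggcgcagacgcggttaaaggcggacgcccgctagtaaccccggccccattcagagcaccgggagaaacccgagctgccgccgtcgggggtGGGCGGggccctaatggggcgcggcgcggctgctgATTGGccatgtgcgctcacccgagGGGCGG
Mlxipl chr5:135089690-135089889, plus strand: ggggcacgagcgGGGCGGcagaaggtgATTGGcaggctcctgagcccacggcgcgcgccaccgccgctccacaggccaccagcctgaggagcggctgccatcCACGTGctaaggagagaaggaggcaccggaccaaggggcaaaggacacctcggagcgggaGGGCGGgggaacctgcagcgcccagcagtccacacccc
Mlxipl chr5:135106691-135106890, plus strand: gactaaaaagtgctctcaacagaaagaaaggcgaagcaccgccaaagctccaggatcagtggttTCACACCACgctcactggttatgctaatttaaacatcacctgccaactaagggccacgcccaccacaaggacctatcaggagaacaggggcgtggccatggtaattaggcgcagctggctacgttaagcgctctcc

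Among 54 other genes of the pathway, each taken by its most accessible promoter region, 6 were increased and 0 decreased with edgeR, where 4.48% of all promoter regions were increased. For the decrease, 0 had an unadjusted p under 0.05 with a lower value, and DESeq2 and limma voom called 0. The median log2 fold change was 0.30, and 26 of the 54 had every aged sample above every young one, where 20.4% of all promoter regions did. In the most accessible decile lay 37 of the 54, of which 5 were increased and 19 had every aged sample higher, with a median of 0.33, close to the 11.2%, 46.9% and 0.28 of all promoters in that decile. Of the other 17, in deciles 7 to 9, 1 was increased and 7 had every aged sample higher, with a median of 0.15, beside 2.50%, 14.4% and 0.076 of all promoters in those deciles. Gpat4, a microsomal glycerol-3-phosphate acyltransferase, had 46.5, 69.5 and 51.5 CPM in young and 86.6, 90.2, 81.7 and 96.7 CPM in aged samples (log2 fold change 0.66, SE 0.138, edgeR adjusted p = 0.019). Acss2, which makes acetyl-CoA from acetate, had 83.5 to 105 CPM in young and 137 to 154 CPM in aged samples (0.64, adjusted p = 0.012, region shared with Ggt7). All 4 aged samples lay above the young ones at both promoters.

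At the elongation enzyme Hsd17b12 the log2 fold change was 0.56 (edgeR adjusted p = 0.040), and the NADPH-producing enzymes Idh1 and Pgd had 0.47 (adjusted p = 0.022) and 0.39 (adjusted p = 0.049), each with 4 of 4 aged samples above the young ones. Without young replicate 1 only Acss2 was increased among the 54 (edgeR adjusted p = 0.040). The edgeR adjusted p was then 0.083 at Gpat4, 0.078 at Hsd17b12, 0.079 at Idh1 and 0.16 at Pgd. In the following fits the numbers in brackets are also edgeR adjusted p-values. Without young replicate 2 the call ended at Acss2 (0.052), Hsd17b12 (0.068), Idh1 (0.085) and Pgd (0.11), and without young replicate 3 at Hsd17b12 (0.061) and Pgd (0.068). Without aged replicate 1 or 3 it ended at Gpat4 (0.057 and 0.051), Hsd17b12 (0.11 both times), Idh1 (0.066 and 0.078) and Pgd (0.098 and 0.13). At Pgd it also ended without aged replicate 2 (0.065) or 4 (0.056). Related regulators did not pass the test with edgeR: Srebf2 had 0.18 (adjusted p = 0.43), the SREBP escort Scap 0.12 (adjusted p = 0.54), and Nr1h3, which encodes the oxysterol receptor LXR alpha, 0.37 (adjusted p = 0.062). At Nr1h3 every aged sample was above every young one, and DESeq2 gave an adjusted p of 0.031. With offsets on mean abundance Nr1h3 had 0.15 (adjusted p = 0.53). Offsets on mean abundance turned the values of Srebf2 and Scap to -0.063 and -0.049. With offsets on mean abundance, 0 of the 54 were increased, the increased promoters named here having log2 fold changes of 0.10 (Idh1) to 0.39 (Gpat4), and 1 was decreased, Mlycd, the malonyl-CoA decarboxylase, which was named after its values were seen. Its promoter had 56.7 to 58.5 CPM in young and 46.3 to 51.5 CPM in aged samples. The log2 fold change at Mlycd was -0.44 with these offsets (edgeR adjusted p = 0.037). Without offsets it was -0.22 and did not pass the test (edgeR adjusted p = 0.21, DESeq2 adjusted p = 0.38). In 4 of the 54 promoters aged replicate 2 was highest.

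The hepatocyte markers checked the tissue label, and all 8 of the list had an accessible promoter region. Their summed CPM was 677, 744 and 729 in young and 873, 823, 942 and 883 in aged samples, so all aged samples were higher in the sum, to which Apoa1 gave the most. Gene by gene, every aged sample was above every young one at 2 of the 8, Apoa1 and Hnf4a, and the ages overlapped at the other 6. The median log2 fold change of the list was 0.28, the same as the 0.28 of all promoters in the most accessible decile, to which 7 of the 8 belong. Apoa1, the most accessible, was the 1 hepatocyte marker increased (0.53, edgeR adjusted p = 0.033), but with offsets on mean abundance it had 0.077 (adjusted p = 0.77). Of other cell types, stellate cell markers had a promoter region for 3 of 7 (not Des, Pdgfrb, Dcn or Hhip), with sums of 26.6, 24.0 and 22.7 CPM in young and 20.6, 13.5, 13.5 and 17.2 CPM in aged samples; the most accessible was Reln (-0.64, adjusted p = 0.059). Adipocyte markers had 1 of 5 (not Adipoq, Lep, Fabp4 or Cfd), Plin1, at 3.70, 3.44 and 4.60 CPM in young and 2.37, 1.77, 1.87 and 1.91 CPM in aged samples (-0.92, adjusted p = 0.070). Both sums were lower in all aged samples. Gene by gene, every aged sample was below every young one at Reln and Plin1. The ages overlapped at the stellate markers Lrat (-0.23) and Colec11 (-0.52).

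Sinusoidal endothelial markers had 4 of 7 (not Stab1, Pecam1 or Lyve1), with a median log2 fold change of -0.27; Stab2, the most accessible, had 0.051 (edgeR adjusted p = 0.88) and the other 3, Kdr, Clec4g and Cdh5, had -0.35, -0.20 and -0.44, none passing the test. The list had sums of 75.0, 70.6 and 67.4 CPM in young and 54.6, 53.2, 72.6 and 89.0 CPM in aged samples. Cholangiocyte markers had 4 of 6 (not Krt19 or Krt7), with summed values of 111, 101 and 125 CPM in young and 110, 97.7, 109 and 113 CPM in aged samples. Kupffer cell and macrophage markers had 1 of 7, Clec4f (-0.66, adjusted p = 0.31), at 2.22, 2.65 and 2.30 CPM in young and 1.41, 0.588, 2.80 and 1.53 CPM in aged samples. The other 6, Adgre1, Vsig4, Csf1r, Cd68, Timd4 and Marco, had none, nor did any of the 7 lymphocyte markers, among them Ptprc, Cd3e, Cd3g, Cd79a, Cd79b and Ms4a1. In the sums of these lists the ages overlapped. At the cholangiocyte marker Epcam every aged sample was below every young one (-0.77, edgeR adjusted p = 0.12). Aged replicate 2 was not highest in the sum of any marker list. It was the lowest of the 7 samples in the sums of the stellate, adipocyte, sinusoidal endothelial, cholangiocyte and Kupffer cell lists, by a narrow margin to aged replicate 3 for stellate markers, and the part of cell composition in the differences at the 10 genes was not tested.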

How the data were processed

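ATAC-seq of 3 young and 4 aged liver samples was analysed from the raw counts that the authors deposited for 55680 consensus regions (GRCm38), whose coordinates are given as in the table; whether starts count from 0 or 1 is not stated. According to the study's methods and the submitters' processing notes, the authors used cutadapt 1.13 for trimming, Bowtie2 2.4.1 for alignment, MACS2 2.2.7 for peaks and featureCounts for counting, and discarded mitochondrial reads and PCR duplicates. Totals per sample ran from 4474652 to 25461110, so the shallow libraries, young replicate 3 among them, limit the precision of weak regions. The counts carry no molecular identifiers.

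Each sample was assigned to its age by its labels. Regions were annotated with GENCODE M21 (bedtools 2.31.1, Python 3.11.15). A promoter region overlapped a TSS ± 200 bp, and downstream meant within 3000 bp after a gene; where a region overlapped several classes, promoter came first. The ages were compared by the quasi-likelihood test of edgeR 4.0.16 (R 4.3.3) after TMM normalization. Age was the sole covariate, no region was filtered out for low counts, and p-values were adjusted over all regions (Benjamini-Hochberg, threshold 0.05). The fit was tested on simulated data. Medians and counts over the 10 genes describe them and were not tested.

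The regions named for each gene were its most accessible promoter region, every region with an adjusted p under 0.05 and its most accessible region outside promoters; of the 54 pathway genes, those that passed the test, with Srebf2, Scap and Nr1h3; and of each marker list, the most accessible gene. Some genes of these lists are not reported here by name. Regions outside this rule are marked as chosen after their values were seen. The 10 genes and all lists were chosen with earlier results of these data known.

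Alternatives were DESeq2 1.42.0, limma 3.58.1 (voom), total counts in regions, offsets from loess fits (span 0.3) on mean abundance and on GC content, at least 10 counts in every sample, a threshold of 0.01, omitting 1 of the 7 samples at a time, adding up the counts of any of the 6 possible aged pairs, the replicate number as a block, gene bodies without flanks, leaving out regions only in promoters of other genes, and promoters of TSS ± 1000 bp. Regions were aligned to the genome with minimap2 2.31; 1 of the 109, an Elovl6 3′ UTR region at chr3:129634346-129634705, has a near-identical copy (at least 80% covered at 95% identity) and its value is uncertain. Promoter sequences came from RefSeq.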

Additional observations from a re-analysis of the deposited data

Results flagged for a closer look

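In the aged group, the highest or lowest of the 4 samples was checked against the others on the log2 CPM scale for 47 values, those of the named regions and of the sums. Where the gap to the nearest sample, divided by the range of the group, exceeded Dixon's critical value for 4 samples, the sample was taken to stand apart. This held for 6 of the 47 values, and chance gives about 1 in 20 groups.

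Aged replicate 4 was highest at the exonic Acly region chr11:100518169-100519392 (gap over range 0.857), with 34.7 CPM against 30.2 to 30.8 CPM, lowest at the intronic Me1 region chr9:86596677-86597810 (0.845), with 2.80 CPM, and lowest at the 5′-most Mlxipl promoter region chr5:135089420-135090690 (0.914), with 31.9 CPM. Aged replicate 3 was highest at the most accessible Mlxipl promoter region chr5:135106532-135109688 (0.852), with 116 CPM. Aged replicate 2 was lowest at the intronic Mlxipl region chr5:135100563-135101448 (0.892), with 29.0 CPM, and highest at the region beyond Scd1, chr19:44387465-44389917 (0.831), with 103 CPM against 77.0 to 80.8 CPM. Of the regions that stood out most in aged replicate 2, none of those over 3′ UTRs or downstream of a gene exceeded this limit, and the other 3 aged samples were themselves spread there. The cause was not tested.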

How the results depend on the processing

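Of 6 increased regions at the 10 genes, 3 were called when aged replicates 1 and 3, 2 and 3, or 3 and 4 were summed as if from 1 liver, 4 with 1 and 2 summed, 6 with 1 and 4 (5 of the same) and 8 with 2 and 4 (all 6 among them), and which pair shares a liver is not stated. With DESeq2 and with offsets on GC content 9 were called, and with limma voom 8. With at least 10 counts in every sample and with total counts in regions 3 were called; 1 was called with offsets on mean abundance and 1 at a threshold of 0.01. Leaving out 1 sample gave 1 (young replicate 1) to 7 (aged replicate 4) increases and 0 to 1 decreases, the decreases without aged replicate 2 or young replicate 3. The Acly and Scd1 promoter calls held in 18 of 20 fits, Gpam in 8, Mlxipl in 7 and Acaca in 4. The median log2 fold change of the 109 regions ran from -0.0073 (without aged replicate 2) to 0.25 when 1 sample was left out.

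Increased pathway promoters, 6 with all samples (691 of all 15422 promoter regions), numbered 14 with DESeq2 (1544 of all), 12 with limma voom (1213), 20 with offsets on GC content (2190), 10 with aged replicates 2 and 4 summed (1193), 3 with 1 and 3 summed (91), 3 with at least 10 counts (214 of 14618), 0 with offsets on mean abundance (30; 1 pathway promoter decreased) and 0 at a threshold of 0.01, so calls over all promoters moved the same way in the fits with such a count; leaving out 1 sample gave 1 to 8, and 0 decreases each time.

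Direction changed at regions that were not called with all samples: without aged replicate 2 at the Fasn 3′ UTR (-0.16; up to 0.87 without another sample), the Elovl6 3′ UTR (-0.054; up to 1.14), and downstream of Gpam (-0.62; up to 0.46) and Thrsp (-0.57; up to 1.17); with aged replicates 1 and 2 summed downstream of Gpam (-0.19) and Thrsp (-0.029); with 2 and 4 summed downstream of Gpam (-0.057); with limma voom downstream of Gpam (-0.20) and Thrsp (-0.29); and with offsets on mean abundance at promoters of Elovl6 (-0.076), Srebf1 (-0.078), Mlxipl (-0.067), Srebf2 (-0.063) and Scap (-0.049). Over 39 named regions and all alternatives, 681 values kept direction and side of the threshold, 101 lost and 22 gained the call. The downstream Thrsp region was increased with the replicate number as a block (0.76, adjusted p = 0.016). So were the Scd1 3′ UTR region (adjusted p = 0.0043) and the Thrsp promoter (adjusted p = 0.049). The intronic regions chr9:86596677-86597810 of Me1 (adjusted p = 0.020) and chr3:129535791-129536704 and chr3:129591308-129593471 of Elovl6 (adjusted p = 0.036 and 0.038) also gained the call. The Acaca promoter at chr11:84178904-84180631 lost it (adjusted p = 0.093). In this block fit aged replicate 4, whose number no young sample has, did not enter the comparison of ages. The other samples were compared as if same numbers were pairs. Beyond this design, the cause of the changed calls was not tested.

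Over all regions, 1360 were increased and 1838 decreased (42.5% increased); with DESeq2 2760 and 1931 (58.8%), limma voom 2197 and 2383, total counts 543 and 2931 (15.6%), GC offsets 3616 and 2038 (64.0%), abundance offsets 250 and 414, at least 10 counts 525 and 802, and aged pairs summed 269 to 2164 and 693 to 2578. Leaving out 1 sample gave 55 to 1630 increases and 133 to 2600 decreases. Total counts moved the median of all regions from -0.035 to -0.15 and that of the 109 regions to 0.087.

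Replicate numbers did not pair the samples (r = -0.12, 0.06 and 0.03 between same-numbered deviations, across regions, which are not independent). With the number as a block, 16 of the 109 regions were increased, and 1485 of all regions were increased and 2593 decreased. That fit treats same numbers as pairs and leaves aged replicate 4 out of the comparison of ages. The shallowest library, with 4474652 counts, held as few as 3 counts in a region of these genes.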
